A study of Mus musculus with 2 samples.

Results

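The immunoglobulin and plasma cell genes examined here were Ighm, Iglv1, Jchain, Xbp1, Derl3, Mzb1, Prdm1, Irf4 and Sdc1, 9 genes in all. They were taken as every probe set whose platform annotation names 1 of them and no other gene, which gave 28 of 45037 probe sets and 9 of 18193 named genes. The genes were selected on the signals of these same arrays, with the lower Ighm signal already known, so their values are a description and carry no test. The data were 1 Affymetrix array of hematopoietic stem cells (HSC) labelled SIRT6 knockout and 1 of wild type cells, both from mice of 3 months. HSC are the bone marrow cells from which all blood lineages arise. The sources used here do not say how the allele was made, how the cells were sorted or whether animals were pooled.

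B cells carry immunoglobulin on their surface, built from 2 heavy chains and 2 light chains of the kappa or lambda type. The mu heavy chain, encoded by Ighm, is the first to be made and forms IgM. When a B cell becomes a plasma cell, the transcription factors Irf4 and Prdm1 (Blimp-1) switch off the B cell programme, Xbp1 expands the endoplasmic reticulum (ER), and antibody is secreted in bulk. The J chain joins IgM and IgA into polymers.

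Each value below is a MAS5 signal, a linear intensity in arbitrary units, as deposited. A signal of 60.5, the median brightness of all probe sets, served as a floor: a probe set above it on at least 1 array is called measured, and a lower value was raised to it before a ratio was taken. A ratio that used a raised value is a bound and is given as "at least". Ratios are log2 of the array labelled knockout over the wild-type array, so negative values are lower on the array labelled knockout. Of the 28 probe sets, 19 were measured, and 17 exceeded the floor on each array. Precision is limited by the number of arrays, and no difference here has a replicate check. As a technical yardstick, log2 ratios from different probe sets for 1 gene had a pooled SD of 0.22 over 4632 genes.

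The Sirt6 probe set read 174 on the array labelled knockout against 124 in wild type, so the target's signal was not lower where the label says knockout. The sources used here do not say which part of the transcript it covers, and every direction below rests on the label. The arrays had median signals of 60.7 and 60.8, and the 11547 measured genes had a median log2 ratio of 0.0023. All 12 genes of the HSC and progenitor marker list found on the array, among them Kit, Cd34, Gata2, Cd48 and Flt3, were above the floor. Flt3 is also on the dendritic cell marker list used below, and these signals do not show how pure the cells were.

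On the array labelled knockout, 3 of the 8 measured mu heavy chain probe sets read more than 2-fold below wild type. The others were within 1.5-fold, and the median of the 8 log2 ratios was -0.28. The 1 measured probe set of a lambda light chain gene read 5.71-fold below wild type. Genes of the secretory machinery differed little, and the plasma cell factors were not measured. By the brightest probe set of each gene, 3 of the 7 measured genes were at least 1.5-fold lower (Ighm, Iglv1 and Sdc1), 0 were higher by that size and 4 lay between (Jchain, Xbp1, Derl3 and Mzb1). Over all 11547 measured genes, 2.63% were at least 1.5-fold lower and 1.71% at least 1.5-fold higher. The median log2 ratio of the 7 genes was -0.47. By the brightest probe set, Ighm and Iglv1 were the 2 genes lower by 2-fold or more, against 0.572% of all measured genes. By probe set, 6 of the 19 measured were at least 1.5-fold lower and 0 at least 1.5-fold higher, beside 3.55% and 1.6% of the 19881 measured probe sets that name 1 gene.

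**Figure D1:**
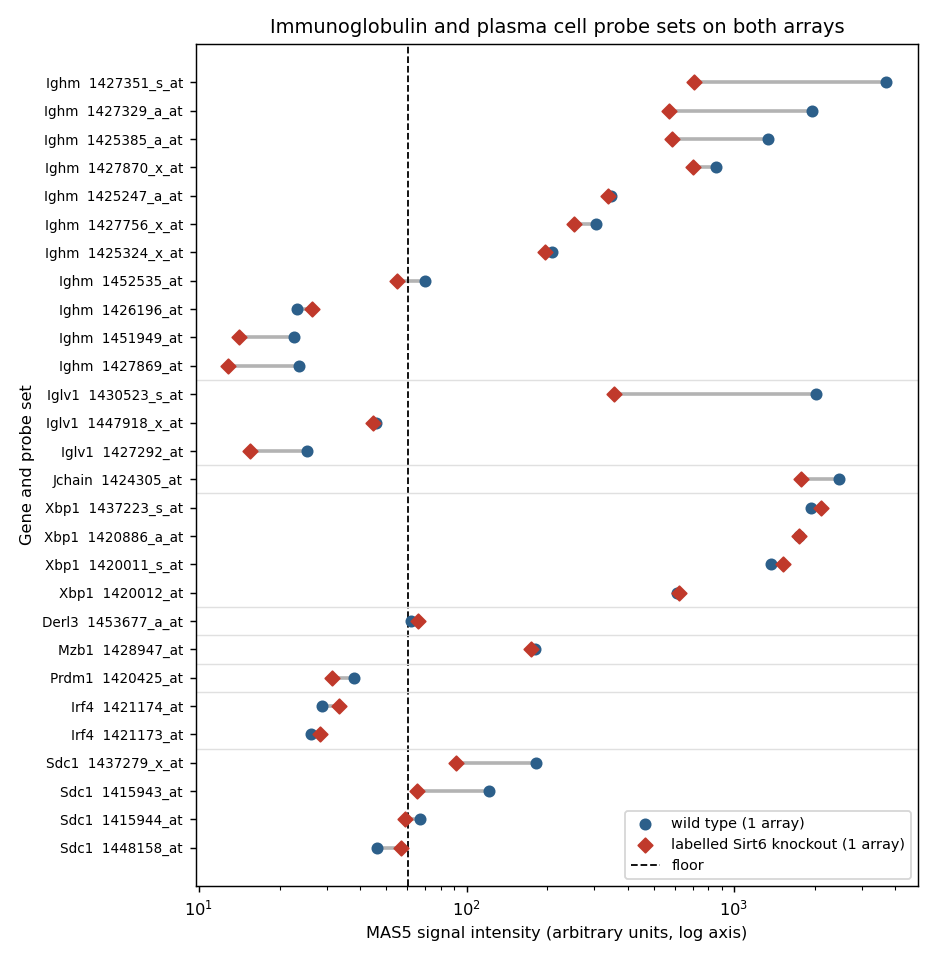
MAS5 signal of each of the 28 probe sets (log axis, arbitrary units) in wild type (circles) and in the cells labelled knockout (diamonds), with a line joining both and the floor of 60.5 dashed. The widest gaps above the floor are in 3 Ighm probe sets and 1 Iglv1 probe set, while the 4 Xbp1 probe sets nearly coincide.

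Ighm was represented by 11 probe sets, of which 8 were measured, and these disagreed in size. Probe set 1427351_s_at read 707 on the array labelled knockout against 3684 in wild type, a log2 ratio of -2.38, or 5.21-fold lower. Probe set 1427329_a_at read 573 against 1963 (log2 -1.78, 3.43-fold lower). Probe set 1425385_a_at read 584 against 1337 (log2 -1.19, 2.29-fold lower). In these 3 the wild-type array was far above the other.

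The other measured Ighm probe sets were all within 1.5-fold. Probe set 1427870_x_at read 705 against 859 (log2 -0.29), and 1427756_x_at read 252 against 304 (log2 -0.27). Probe set 1425324_x_at read 196 against 209 (log2 -0.09), and 1425247_a_at 339 against 347 (log2 -0.04). For the last of these the sign depended on the scaling, with 4.2e-05 after quantile normalization. Probe set 1452535_at read 55.2, under the floor, against 70.0 in wild type, at least 1.16-fold lower.

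The remaining 3 Ighm probe sets stayed under the floor. They read 26.6 and 23.3 (1426196_at), 14.1 and 22.7 (1451949_at) and 12.9 and 23.7 (1427869_at) on the array labelled knockout and the wild-type array, and no ratio is given for them.

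Across the 8 measured Ighm probe sets the log2 ratio ran from -2.38 to -0.04, with a median of -0.28, a mean of -0.78 and an SD of 0.89 between probe sets. All 8 ratios were negative, and 3 were at least 2-fold lower, as were 0.785% of the measured probe sets naming 1 gene. The size of the Ighm difference therefore depends on which probe set is read. Over the 7 that exceeded the floor on each array, the range was 2.35 wide. Among 252 genes with at least 5 such probe sets the median width was 0.44 and none was wider than Ighm, and among 4632 genes with at least 2 only Xist, named after its value was seen, was wider (2.81). Probe sets whose names end in _x_at contain probes that can bind other transcripts, and those ending in _s_at match transcripts of more than 1 gene. Immunoglobulin genes are a large family of near copies, so signal of related segments may be shared and the gene assignment is uncertain. The 3 measured _x_at probe sets of Ighm lay between -0.29 and -0.09, the 3 _a_at ones between -1.78 and -0.04, and the 1 _s_at probe set at -2.38.

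Iglv1, a variable segment of the lambda light chain locus, had 3 probe sets and 1 was measured. Probe set 1430523_s_at read 355 on the array labelled knockout against 2028 in wild type, a log2 ratio of -2.51, or 5.71-fold lower. The others were under the floor on both arrays, at 44.8 against 45.8 (1447918_x_at) and 15.6 against 25.3 (1427292_at). A further probe set, 1424931_s_at, is annotated to both Iglc1, a lambda constant segment, and Iglv1, and was assigned to neither. It read 316 against 2208 (log2 -2.81). The lambda signal was thus low on the array labelled knockout and high on the wild-type array in both of the bright lambda probe sets.

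These differences were at the edge of the whole table. The genes were selected on these same arrays with the lower Ighm signal known, so the ranks describe that selection and carry no test. The first 2 ranks below are of probe sets that both name Iglv1. Of 21544 probe sets that exceeded the floor on each array, the lowest log2 ratio was that of 1424931_s_at, the next that of Iglv1 1430523_s_at and rank 3 that of Ighm 1427351_s_at. Ighm 1427329_a_at was at rank 20 and 1425385_a_at at rank 80. Of the 1759 measured probe sets within 0.5 log2 units of the mean signal of 1427351_s_at, 0.739% were at least 1.5-fold lower. Around Iglv1 1430523_s_at it was 1.61% of 2985. At least 1.5-fold higher were 0.91% and 1.04% of the same probe sets. Differences of that size were thus few at that brightness, in either direction.

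**Figure D2:**
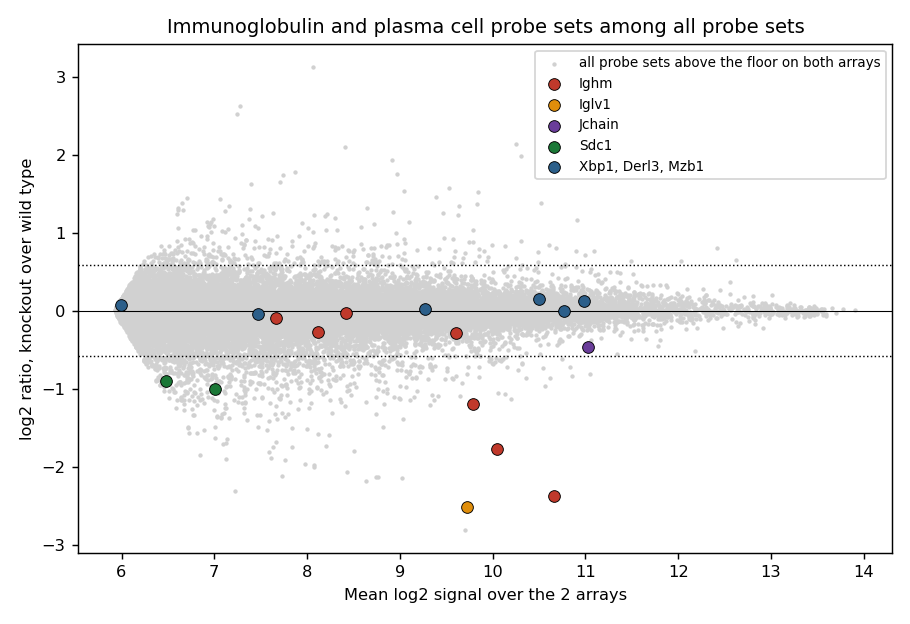
The log2 ratio of the array labelled knockout over the wild-type array (y) against mean log2 signal (x) for the 21544 probe sets that exceeded the floor on each array (grey), with the 17 immunoglobulin and plasma cell probe sets coloured and dotted lines at 1.5-fold. Ighm reaches -2.38 and Iglv1 -2.51 where the grey cloud is narrow, whereas Xbp1, Derl3 and Mzb1 lie near 0.

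Probe sets of the alpha heavy chain and most of those of the kappa light chain were within 1.5-fold. Igha, the alpha heavy chain of IgA, was measured on 3 probe sets, and 1421653_a_at read 5969 on the array labelled knockout against 6847 in wild type. The log2 ratios of its 3 probe sets lay close together, from -0.23 to -0.20, and stayed negative under each of the 3 rescalings tried. Of the 29 probe sets annotated to kappa light chain genes alone, 12 were measured, with a median of -0.20, 2 at least 1.5-fold lower and 1 at least 1.5-fold higher. The brightest, 1427660_x_at, is annotated to 5 kappa genes and read 7172 against 8354 (log2 -0.22). These kappa probe sets were grouped after the values were seen.

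As genes, 16 other immunoglobulin genes were on the array and 8 were measured, with a median log2 ratio of -0.13. Of these 8, 2 were at least 1.5-fold lower and 1 at least 1.5-fold higher, beside 2.63% and 1.71% of all measured genes. The kappa variable segment Igkv9-120 read 137 against 386 (2.83-fold lower) on its brightest probe set. Igkv15-103 read 64.7 against 106 (log2 -0.71), and the gamma heavy chain gene Ighg3 read 223 against 179 (0.31). Igkv6-14 read 104 against 15.0, under the floor, and was at least 1.73-fold higher. High signal of alpha and kappa chains was thus present on both arrays. The differences of at least 2-fold toward lower signal were in 3 of the 8 measured mu probe sets, in lambda and in 1 kappa variable segment.

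**Figure D3:**
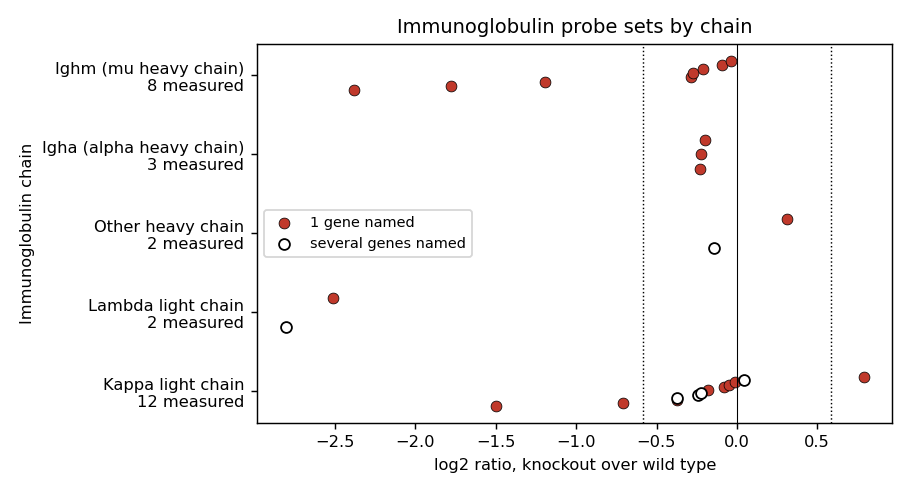
The log2 ratio of every measured immunoglobulin probe set by chain, filled where the annotation names 1 gene and open where it names several, with dotted lines at 1.5-fold. The 3 Igha probe sets sit between -0.23 and -0.20 and the lambda probe sets at -2.81 and -2.51, while the 8 Ighm probe sets spread from -2.38 to -0.04.

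Jchain, the joining chain of polymeric IgM and IgA, had 1 probe set (1424305_at), at 1776 on the array labelled knockout against 2462 in wild type. That is a log2 ratio of -0.47, or 1.39-fold lower, which is inside the 1.5-fold size. Of the 1269 measured probe sets within 0.5 log2 units of its mean signal, 0.63% were at least 1.5-fold lower. Over the alternatives its ratio ranged from -0.50 to -0.46.

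Xbp1, the transcription factor of the unfolded protein response that plasma cells need for secretion, was measured on all 4 of its probe sets. On the array labelled knockout and the wild-type array, 1437223_s_at read 2111 and 1939 (log2 0.12), 1420886_a_at 1742 and 1754 (-0.01), 1420011_s_at 1522 and 1369 (0.15) and 1420012_at 621 and 612 (0.02). The 4 ratios had an SD of 0.08 and none reached 1.5-fold. Mzb1, an ER protein that assists assembly of IgM, read 174 against 181 (log2 -0.05), and after quantile normalization the sign turned (0.0033). Derl3, a derlin of ER-associated degradation and a known target of Xbp1, read 65.6 against 62.2 (log2 0.08), just above the floor on both arrays.

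The promoter of Derl3 is shown because Derl3 is a known ER stress target, and that of Sdc1 because Sdc1 is the one gene at least 1.5-fold lower with a RefSeq promoter entry. Promoter entries matched 6 of the 9 genes. The sequences are the 250 bases before the RefSeq start in GRCm38.p6, at chr10:75893148-75893397 (Derl3, plus strand) and chr12:8771146-8771395 (Sdc1, plus strand). Capitals mark matches, on either strand, to the ER stress response element (CCAAT, then any 9 bases, then CCACG) and to the GC box (GGGCGG), which Sp1 family factors bind.
Derl3: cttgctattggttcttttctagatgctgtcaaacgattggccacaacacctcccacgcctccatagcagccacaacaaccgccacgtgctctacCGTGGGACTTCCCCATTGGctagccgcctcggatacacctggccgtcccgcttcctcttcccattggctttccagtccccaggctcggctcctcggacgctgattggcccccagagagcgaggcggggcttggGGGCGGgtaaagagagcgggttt
Sdc1: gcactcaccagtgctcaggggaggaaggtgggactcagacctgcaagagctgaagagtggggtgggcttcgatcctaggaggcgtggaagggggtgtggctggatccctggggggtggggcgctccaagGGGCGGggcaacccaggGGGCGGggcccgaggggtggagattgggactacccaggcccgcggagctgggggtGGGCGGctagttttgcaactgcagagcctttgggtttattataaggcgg
The ER stress element matched once, in Derl3, on the reverse strand and starting 156 bases before the start. It occurs in 37 of 32851 such windows (0.113%). The Sdc1 window holds 3 GC boxes on the forward strand, starting 121, 104 and 49 bases before the start, a motif present in 32.7% of windows. The Derl3 window holds 1, and that of Irf4 holds 2 that do not overlap. The octamer ATGCAAAT (1.60% of windows) and the letters TGACGTGG (0.563%) had no match in the 6 windows. A match describes letters and not binding.

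The transcription factors that direct plasma cell formation were not measured. Prdm1 read 31.3 and 38.0 on the array labelled knockout and the wild-type array. The Irf4 probe sets read 33.4 and 28.7 (1421174_at) and 28.2 and 26.3 (1421173_at). All of these are under the floor of 60.5, where order has no meaning, and no ratio is given.

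Sdc1, or CD138, the surface proteoglycan by which plasma cells are commonly sorted, was lower on the array labelled knockout. Probe set 1437279_x_at read 91.1 against 182 (a little under 2-fold lower) and 1415943_at 65.1 against 122 (log2 -0.90, 1.87-fold lower). Probe set 1415944_at read 59.1, under the floor, against 67.2 in wild type (at least 1.11-fold lower), and 1448158_at was under it on both (56.9 against 46.4). Among measured probe sets within 0.5 log2 units of the mean signal of 1437279_x_at, 6.68% were at least 1.5-fold lower, so differences of this size were more frequent at that brightness than around Ighm.

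Genes of B cells did not follow Ighm. Of 12 measured B cell receptor and B cell genes, 0 were at least 1.5-fold lower and 3 at least 1.5-fold higher by the brightest probe set. Over all measured genes the shares were 2.63% and 1.71%. The median of the 12 was 0.46, against 0.0023 for all measured genes. Vpreb1 and Igll1 form the surrogate light chain that pairs with mu before a light chain is made. Vpreb1 had a signal of 433 against 127 (log2 1.78) and Igll1 of 296 against 96.2 (log2 1.62). The adaptor Blnk read 171 against 93.8 (0.87), and the kinase Btk 1714 against 1169 (0.55). Of the 7 genes of the B cell marker list on the array, 5 were measured. With values raised to the floor 0 reached 1.5-fold, but for Cd79a the ratio is a bound. Cd22 read 93.2 against 65.7, Pax5 81.2 against 60.8, Cd79b 257 against 233 and Cr2 72.6 against 73.6. Cd79a read 87.7 against 38.4, the latter under the floor, and was at least 1.45-fold higher. The surface marker Ms4a1 (CD20) at 15.1 against 22.1 and the early B lineage factor Ebf1 at 48.0 against 50.7 stayed under it. The signals of all 7 summed to 655 on the array labelled knockout and 544 in wild type. In bulk RNA, fewer cells of a type and less RNA per cell cannot be told apart.

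Factors around the plasma cell switch were 14 of 18 measured, with 0 lower and 1 higher by at least 1.5-fold. Over all measured genes the shares were 2.63% and 1.71%. The median log2 ratio of the 14 factors was 0.10. Pou2af1, the B cell coactivator of octamer factors, read 130 against 77.3 (log2 0.75). Zbtb20, a zinc finger factor of plasma cells, read 514 against 724 (-0.50). Its 8 other measured probe sets were also lower, from -1.36 to -0.16. Pou2f2 (Oct2) had a log2 ratio of 0.48, and 0.73 on its other measured probe set. Irf8 had 0.46 and 0.54.

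On the list of surface receptors chosen for plasma cells, 9 of the 12 genes on the array were measured. Of these, 1 was at least 1.5-fold lower and 2 at least 1.5-fold higher, beside 2.63% and 1.71% of all measured genes. The median log2 ratio of the 9 was 0.18. Il6ra, the interleukin 6 receptor, read 132 against 228 (log2 -0.79), and Tnfrsf13c, the BAFF receptor, 44.5 against 73.9, at least 1.22-fold lower. The inhibitory Fc receptor Fcgr2b read 645 against 396 (0.70), and Ly6k 186 against 32.4, at least 3.08-fold higher. Ly6k, a membrane-anchored protein of the Ly6 family, was put on the list when its difference was already known. Tnfrsf17 (BCMA), the receptor most typical of plasma cells, was under the floor on both arrays at 24.4 and 24.9.

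The unfolded protein response and ER secretion genes differed little in size and mostly in 1 direction. All 48 on the array were measured. By the brightest probe set, 0 were at least 1.5-fold lower or higher, beside 2.63% and 1.71% of all measured genes. Of the 48 ratios 37 were positive, and the median was 0.11. Over all 11547 measured genes, 5825 ratios were positive. After quantile normalization the positive ratios were 36 of the 48 and 6309 of 11549. By the brightest probe set, the largest ratios were in the oxidase Ero1a (810 against 541, log2 0.58), Fkbp11 (176 against 124, 0.50), Sdf2l1 (1000.1 against 764, 0.39) and Edem1 (558 against 428, 0.38). Other measured probe sets passed 1.5-fold in both directions, for Hyou1 (log2 1.23), Edem1 (0.64), Hsp90b1 (-0.86) and Prdx4 (-0.60). Hspa5 (BiP), the main ER chaperone, named here after its value was seen, read 5426 against 4716 (0.20). The median was 0.11 under each of the 3 rescalings, although Ero1a, so close to the limit, crossed 1.5-fold after quantile normalization and after loess.

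**Figure D4:**
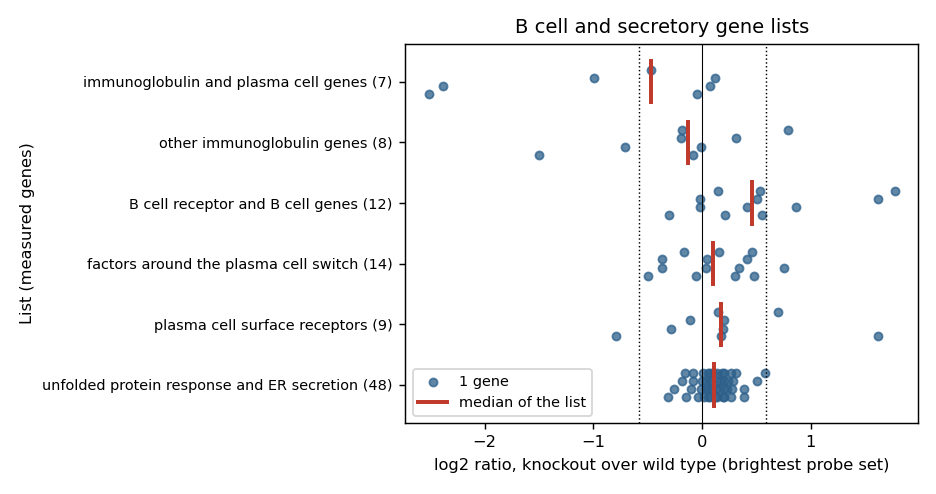
The log2 ratio of each measured gene (points, brightest probe set, bounds included) by list, with the list median in red and dotted lines at 1.5-fold. The 48 ER genes lie within 1.5-fold of 0, whereas the immunoglobulin and plasma cell genes reach -2.51 and the B cell genes 1.78.

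The genes nearest to Ighm 1427351_s_at in the plane of the 2 log2 signals, among 10830 other genes that exceeded the floor on each array, were Malat1, Hlf, Ctcf, Vldlr and Iglv1. Malat1 lay 1.01 log2 units away (1081 against 2117) and Iglv1 1.32 units away. With 2 arrays this compares 2 values per gene, and the 4 others had log2 ratios from -1.13 to -0.72, smaller than that of Ighm.

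Some marker genes of other blood cells also differed. Over all measured genes, 2.63% were at least 1.5-fold lower and 1.71% at least 1.5-fold higher. Of 9 measured granulocyte markers, 7 were at least 1.5-fold higher, and the signals of all 9 summed to 26137 on the array labelled knockout and 17289 in wild type. Of 5 measured conventional dendritic cell markers, 3 were at least 1.5-fold lower (Cd74, H2-Aa and H2-Eb1, genes of MHC class II presentation that B cells also express). The other 2 were not lower: Flt3 read 1659 against 1452 (log2 0.19), and Itgax 74.9 against 57.7, the latter under the floor (at least 1.24-fold higher). Over the 7 dendritic markers on the array, those under the floor included, the signals summed to 2550 and 3060, with Flt3 the brightest of them. Plasmacytoid dendritic cells had 4 of 9 markers measured, and with values raised to the floor 0 reached 1.5-fold. Of these Ccr9 read 32.9, under the floor, against 63.2 (at least 1.05-fold lower), and Siglech was not measured (36.5 and 36.6). Of the 12 measured ratios of the HSC and progenitor list, 7 were negative and 5 positive. Fgd5 had a log2 ratio of -1.38, Hlf -1.13, Procr -0.87 and Mecom -0.63. These were the 4 of 12 genes of that list lower by at least 1.5-fold, and 0 were higher by that size. Of the erythroid markers 1 of 3 was lower by that size (Car1, 128 against 499). Of the monocyte and macrophage markers 1 of 7 was higher by that size (F13a1, 1273 against 428). A single gene does not describe a cell type. The 1 measured T cell marker, Cd8a, read 94.4 against 81.2, and Cd3e was under the floor on both arrays. The part of these cells in the lower Ighm and Iglv1 signal was not tested.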

How the data were processed

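The authors deposited 1 table of linear signal intensities per probe set. MAS5 is named per the submitters' processing notes. The sources used here do not give its version, scaling target or detection calls. Values were kept as deposited and taken to log2, with the floor at the median of the mean log2 signal (5.92). Genes were named from the platform annotation: 34945 of 45037 probe sets named 1 gene, 932 several and 9160 none, and 34741 matched RefSeq (GRCm38.p6) by Entrez identifier. The brightest probe set stood for a gene. With 1 array per genotype no test was run, and differences were counted at 1.5-fold and 2-fold. The procedure was tested on simulated data, with changes put only in genes well above the floor and alike in all probe sets of a gene. That test does not cover dim genes, probe sets that disagree or differences between animals. The genes, the 5 gene lists and 8 marker lists were chosen with earlier results of these data known. Named were all 9 genes, the 4 list genes with the largest ratio where a list is described in detail, and the 5 genes nearest Ighm; others were named after their values were seen. Alternatives were quantile normalization, median centring, loess (span 0.3), the floor at percentile 25 or 75 or removed, a pseudocount equal to the floor, other probe set rules and 2-fold. Python 3.11.15, numpy 2.4.6, pandas 2.3.3 and statsmodels 0.14.6 were used.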

Additional observations from a re-analysis of the deposited data

How the results depend on the processing

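Under all alternatives run, 2 or 3 of these genes were at least 1.5-fold lower and 0 at least 1.5-fold higher. Sdc1 dropped out at 2-fold and with a floor at percentile 75 (4 genes measured), Iglv1 without _x_at and _s_at probe sets (6 measured), and Ighm with the median over its probe sets in place of the brightest. The median log2 ratio of the measured Ighm probe sets was -0.28 and moved most with the probe sets kept, to -0.74 with the higher floor (6 left) and -0.70 without _x_at and _s_at probe sets (4 left); elsewhere it lay between -0.34 and -0.20. Of 126 ratios of single probe sets under 7 alternatives, 124 moved by less than the SD between probe sets of a gene and 2 by more, both of Sdc1 with a pseudocount (-0.68 and -0.54). No paired analysis was possible because each genotype had 1 array. Dim probe sets have no order, so nothing is said of Prdm1 and Irf4.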

Other observations

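Besides the lambda probe set described above, 4 probe sets name Ighm together with other immunoglobulin genes and entered no comparison. Probe set 1427758_x_at read 102 on the array labelled knockout against 112 in wild type (log2 -0.15). The other 3 were under the floor on both arrays, at 40.2 against 44.4 (1427851_x_at), 14.4 against 22.6 (1451947_at) and 13.5 against 3.07 (1452538_at).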
